A study of Mus musculus with 4 samples.

Results

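A set of 9 axon guidance genes were followed in lymphatic endothelial cells of the newborn mouse lung: the netrin ligand genes Ntn1 and Ntn4, the netrin receptor genes Neo1 and Unc5b, the Slit ligand genes Slit2 and Slit3, and the Robo receptor genes Robo1, Robo2 and Robo4. They were chosen by name, and all 9 were found among the 24421 rows of the deposited count table. The cells were sorted from lungs at postnatal day 0 as negative for the leukocyte protein CD45 and positive for the endothelial protein CD31 and for GFP, from pools of 3 to 5 mice. All animals carried Prox1-CreER, a Cre recombinase under the lymphatic gene Prox1 that is switched on by tamoxifen, and Rosa26-mTmG, a reporter that turns to GFP after Cre has acted. The Jun-Ctrl group (Prox1-CreER;Junf/+;Rosa26-mTmG) had 1 floxed Jun allele and the Jun-cKO group (Prox1-CreER;Junf/f;Rosa26-mTmG) had 2, so that Cre could also act on Jun in the controls. Each group had 2 libraries, called replicate 1 and replicate 2. The cells of a group were mixed before RNA amplification, so the p-values cover how far these libraries differ from one another, which may be technical variation.

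Netrins and Slits are secreted proteins first known for steering growing axons. Netrins bind receptors of the Unc5 and Dcc families, to which neogenin (Neo1) belongs, and Slits bind Robo receptors, whose cytoplasmic parts act on the actin cytoskeleton. In vessels, Unc5b and Robo4 are known as endothelial receptors of sprouting and barrier control, netrin-4 has been linked to lymphatic vessel growth, and Slit2 has been reported to alter the migration of lymphatic endothelial cells.

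The Jun-Ctrl libraries held 16037416 (replicate 1) and 6483514 (replicate 2) counts, and the Jun-cKO libraries 15558476 and 6911821. Jun itself was at 472 and 433 CPM (counts scaled to library size, with TMM factors) in the controls and at 524 and 475 CPM in Jun-cKO, which was not a call (log2 fold change 0.14, adjusted p = 0.354). The targeted transcript was therefore no lower in the libraries labelled Jun-cKO, and the directions given here are those of the labels. Of 8 lymphatic markers, Prox1, Flt4, Lyve1, Pdpn, Reln, Mmrn1 and Thy1 were detected in all libraries and Ccl21a had 0 counts. Among them Reln, Lyve1 and Mmrn1 rose (log2 fold changes 0.78, 0.61 and 0.54), Flt4 fell (-0.60), and Prox1, Pdpn and Thy1 were not called. Markers of other cells were present and differed between the groups. The 14 lung epithelial markers summed to 1685 and 1793 CPM in Jun-Ctrl and to 202 and 197 CPM in Jun-cKO. Of them 13 were called lower, 6 of which passed the filter on low counts only through the Jun-Ctrl libraries. The 11 mesenchymal markers summed to 316 and 325 CPM against 146 and 154 CPM. Of 10 tested ones 5 fell and 5 were not called, and Col1a2 alone went from a mean of 130 to 39.8 CPM. The 9 smooth muscle and pericyte markers summed to 93.9 and 95.01 CPM against 18.3 and 18.7 CPM. Of 8 tested ones 6 fell, 4 of which passed the filter only through Jun-Ctrl. Over all tested genes 22.5% were lower. The 9 immune markers summed to 459 and 451 CPM among the controls, against 202 and 180 CPM in Jun-cKO, and 6 of 7 tested ones fell, including Ptprc, which encodes the CD45 used in the sort (log2 fold change -1.30), while Cd3e had 0 counts. The part of immune cells in the values of the guidance genes was not tested. The 5 mesothelial markers went the other way in sum, at 266 and 238 CPM in Jun-Ctrl against 315 and 334 CPM in Jun-cKO. Of 3 tested ones Gpm6a rose, from a mean of 219 to 322 CPM, Msln fell and Wt1 was not called. The 7 neural markers summed to 25.6 and 24.0 CPM against 18.5 and 20.2 CPM, and of 2 tested ones 1 fell. In sorted bulk RNA, fewer cells of a type and less RNA per cell cannot be told apart.

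The receptors Unc5b, Neo1 and Robo4 were the most abundant of the 9 genes, Ntn1 followed, and the other 5 genes were near the lower end of the measured range. Levels were compared between genes as RPKM, the CPM per kilobase of deposited gene length. In Jun-Ctrl, Unc5b was at 51.7 ± 6.60 RPKM (mean ± SD, n = 2 throughout), above 87.4% of the 12656 genes that passed the filter on low counts (filterByExpr of edgeR). Neo1 was at 25.5 ± 2.00 RPKM and Robo4 at 22.6 ± 3.55 RPKM, and the libraries of these neighbours overlapped. Ntn1 was at 7.78 ± 0.629 RPKM, near the middle of the tested genes, with 51.6% of them below it. Robo1 (0.847 ± 0.140 RPKM), Slit2 (0.652 ± 0.0394 RPKM), Slit3 (0.588 ± 0.00916 RPKM), Ntn4 (0.392 ± 0.163 RPKM) and Robo2 (0.137 ± 0.0758 RPKM) were all below 1 RPKM. Of the 5 receptor genes 3 exceeded 1 RPKM, and of the 4 ligand genes 1 did. The order of Slit2 and Slit3 turned when the longest reference transcript was used as the length, at 0.560 and 0.562 RPKM. By that length Robo4 was at 17.6 RPKM and Neo1 at 25.5 RPKM in Jun-Ctrl, and their libraries no longer overlapped.

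**Figure D1:**
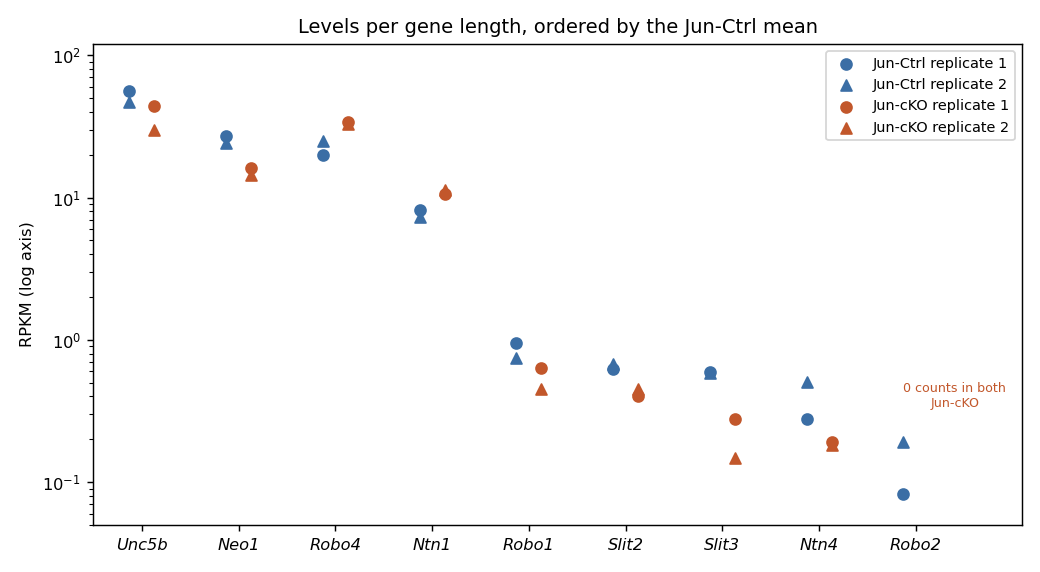
Level of each gene per kilobase of gene length (RPKM, log axis) in the 4 libraries, with circles for replicate 1 and triangles for replicate 2. Unc5b, Neo1, Robo4 and Ntn1 lie between 7.33 and 56.4 RPKM, the other 5 genes lie below 1 RPKM, and Robo4 lies above Neo1 in both Jun-cKO libraries and overlaps Neo1 in Jun-Ctrl.

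The order changed in the Jun-cKO libraries. Robo4, at 33.4 ± 0.953 RPKM, stood above Neo1, at 15.2 ± 1.28 RPKM, and its libraries overlapped those of Unc5b, at 37.0 ± 10.4 RPKM. Per length, Robo4 reached 0.745 and 1.04 times Neo1 in the Jun-Ctrl libraries and 2.11 and 2.28 times Neo1 in the Jun-cKO libraries. The 2 groups could not overlap in this ratio, since both Jun-cKO libraries were above both Jun-Ctrl libraries for Robo4 and below them for Neo1. It restates those 2 differences, and an exact permutation test of 2 against 2 libraries cannot give a two-sided p below 0.333. For Unc5b over Ntn1 the ratio was 6.86 and 6.42 among the controls, against 4.17 and 2.64 in Jun-cKO. This ratio likewise restates the differences of its 2 genes.

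The comparison between the groups asks how expression at birth differs with 2 floxed Jun alleles from that with 1. Of the 9 guidance genes, 6 reached the level of the count filter (0.890 CPM, before TMM scaling) in both libraries of each group. Among these Robo4 and Ntn1 rose, Neo1 and Unc5b fell, and Slit2 and Robo1 did not pass an adjusted p of 0.05 by the quasi-likelihood test of edgeR, adjusted by the Benjamini-Hochberg method over all 12656 tested genes. Over all tested genes 41.5% were called, 19.0% higher and 22.5% lower, so 4 calls among 6 genes are read beside a high background. The median log2 fold change was -0.54 over the 6 genes and 0.01 over all tested genes. Neither Ntn4 nor Robo2 passed the filter, and Slit3, which was called lower, passed it only through its Jun-Ctrl libraries, so its call is given below as a value and is not counted here. The libraries of the groups did not overlap for any of the 6 genes, with Ntn1 and Robo4 higher and Neo1, Unc5b, Slit2 and Robo1 lower. Slit3, Ntn4 and Robo2 were also lower in both Jun-cKO libraries, but they are not counted here and support no direction for the set. Among all tested genes, 35.4% had both Jun-cKO libraries above both Jun-Ctrl libraries and 35.9% had them below.

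**Figure D2:**
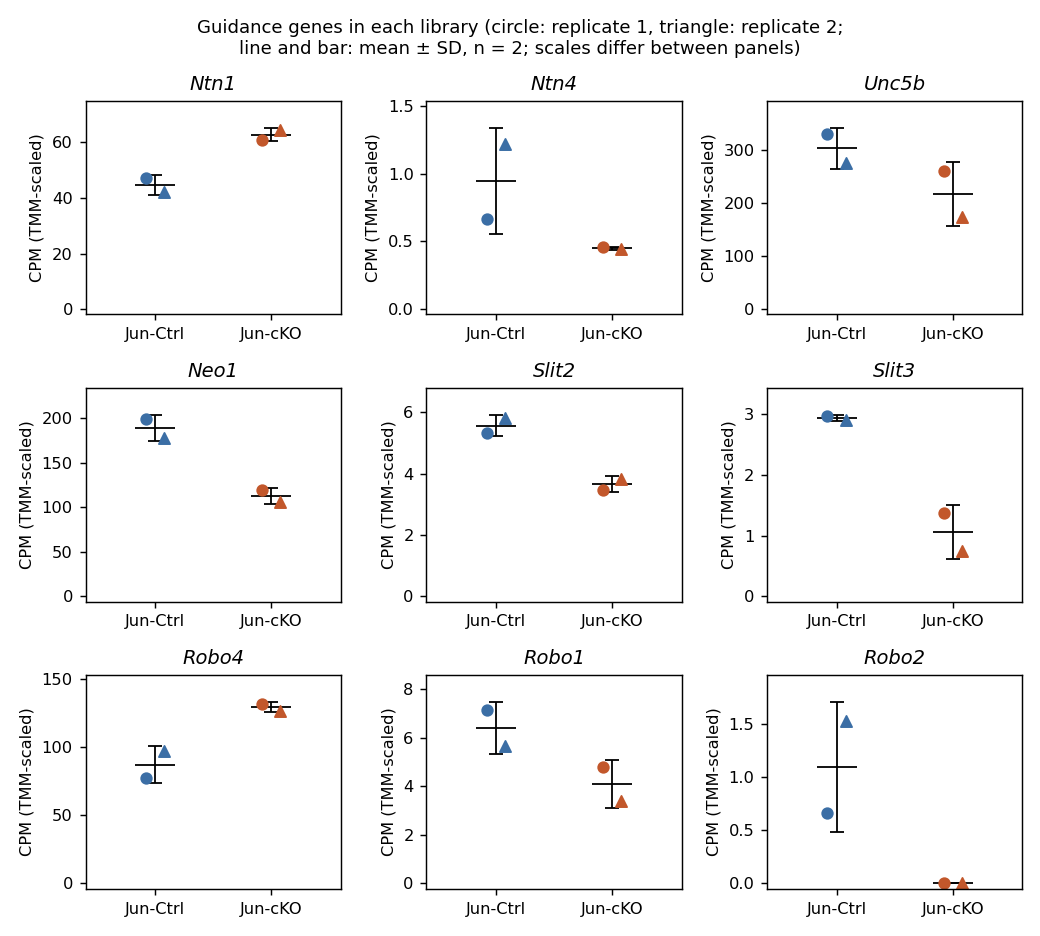
TMM-scaled CPM of the 9 guidance genes in each library, with circles for replicate 1, triangles for replicate 2, and the mean ± SD of 2 libraries as line and bar; each panel has its own scale starting at 0. Robo4 and Ntn1 are higher in both Jun-cKO libraries than in either Jun-Ctrl library, and the other 7 genes are lower. Of these 7, Slit3, Ntn4 and Robo2 did not reach the level of the count filter in both libraries of each group.

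Ntn1 encodes netrin-1, the founding netrin of vertebrates, and was the higher of the netrin genes. Its locus is chromosome 11, minus strand (68209364 to 68400823; all gene coordinates are GRCm38), with 8 exons in its longest transcript. The Jun-Ctrl libraries had 778 and 275 counts and the Jun-cKO libraries 932 and 437, which gave 47.2 and 42.1 CPM against 61.1 and 64.5 CPM. Both Jun-cKO libraries were above both Jun-Ctrl libraries, by 0.37 to 0.62 on the log2 scale over the 4 pairs of libraries. The fit gave a 1.40-fold rise (95% interval 1.16 to 1.67, adjusted p = 0.00241). The call ended when Jun-Ctrl replicate 2 was left out (0.39 on the log2 scale, adjusted p = 0.0779). Correction for GC content gave 0.86 (adjusted p = 9.34e-07) in place of 0.48, over a range of adjusted p from 9.34e-07 to 0.0779 in 14 alternatives.

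Ntn4 encodes netrin-4, a basement membrane netrin that binds laminin, and lies on the plus strand of chromosome 10 (93640681 to 93747207), with 10 exons. It had 11 and 8 counts in the controls, against 7 and 3 in Jun-cKO. Pooled over libraries, these 19 and 10 counts gave a ratio of 0.550 with a counting interval from 0.228 to 1.24 (exact binomial, 95%), so no difference was detectable at this depth. Ntn1 made up 95.1% ± 2.28 of the summed RPKM of the pair in Jun-Ctrl and 98.3% ± 0.105 in Jun-cKO.

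Neo1 encodes neogenin, a receptor for netrins and for repulsive guidance molecules. It lies on the minus strand of chromosome 9 (58874687 to 59036441), with 29 exons in its longest transcript. The counts, 3278 and 1163 for Jun-Ctrl against 1819 and 717 for Jun-cKO, gave 199 and 178 CPM against 119 and 106 CPM. The gap between the groups was far wider than the gap within either of them. Neo1 fell 1.67-fold (adjusted p = 1.35e-06; log2 fold change -0.74, SE 0.12), and it was called in each of the 14 alternatives, with log2 fold changes from -0.84 to -0.65. With the correction for GC content it was at -0.77.

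Unc5b, the Unc5 receptor best known from endothelial cells, was the most abundant gene of the 9 and lies on the minus strand of chromosome 10 (60762593 to 60831581), with 17 exons. The controls had 5457 and 1805 counts and Jun-cKO had 3970 and 1179, or 331 and 276 CPM against 260 and 174 CPM. The groups did not overlap, but the highest Jun-cKO library lay close to the lowest Jun-Ctrl library, and the Jun-cKO libraries differed from each other by 0.58 on the log2 scale. The fit gave a 1.39-fold fall (95% interval of the fold 0.598 to 0.861, adjusted p = 0.00281). This call ended after GC correction (log2 fold change -0.06, adjusted p = 0.726, against -0.48 as counted), by the DESeq2 Wald test (0.251), and when either Jun-Ctrl replicate 1 (log2 fold change -0.35, adjusted p = 0.191) or Jun-cKO replicate 2 (-0.22, adjusted p = 0.196) was left out. Without Jun-cKO replicate 1 the log2 fold change was -0.81. Its longest transcript had a GC content of 58.7%, the highest of the 9 genes, whose range was 42.4% to 58.7%. Such a trend was not limited to Unc5b: over 12188 tested genes the log2 fold change ran against GC content (Spearman correlation -0.34). The part of base composition in this difference was not tested beyond that correction. Per length, Unc5b was 2.10 and 1.95 times Neo1 among the controls, against 2.75 and 2.07 times in Jun-cKO, so the ratio of the receptors overlapped between the groups.

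The start regions of the netrin receptors are shown because both receptors are abundant here and were lower in both Jun-cKO libraries. Each window covers 250 bases before and 50 after the RefSeq start, on the strand of the gene (GRCm38.p6), and capitals mark matches to the motif letters searched. The Neo1 window is chr9:59036392-59036691 and the Unc5b window chr10:60831532-60831831.
Neo1: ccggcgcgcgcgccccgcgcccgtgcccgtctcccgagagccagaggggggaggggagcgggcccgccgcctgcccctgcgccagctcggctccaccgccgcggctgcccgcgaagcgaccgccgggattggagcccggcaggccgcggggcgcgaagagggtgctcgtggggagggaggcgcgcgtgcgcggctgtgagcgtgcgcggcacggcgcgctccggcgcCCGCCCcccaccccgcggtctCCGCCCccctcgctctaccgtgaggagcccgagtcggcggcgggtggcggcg
Unc5b: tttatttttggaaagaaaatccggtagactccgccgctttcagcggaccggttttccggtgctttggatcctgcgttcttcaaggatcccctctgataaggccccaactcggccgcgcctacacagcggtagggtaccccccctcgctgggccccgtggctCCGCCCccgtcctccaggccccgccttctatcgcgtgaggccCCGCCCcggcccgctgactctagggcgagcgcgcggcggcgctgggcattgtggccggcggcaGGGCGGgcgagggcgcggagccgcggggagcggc
The capitals in both are GC boxes (GGGCGG or its reverse complement, bound by SP and KLF factors), of which Neo1 had 2 and Unc5b 3. The windows had GC contents of 82.7% and 69.7% and 54 and 36 CpG dinucleotides, against medians of 52.7% and 7 CpG over 32851 promoter windows. Neither contained the AP-1 letters TGANTCA or TGACGTCA on either strand.

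Slit2 and Slit3 encode secreted ligands of Robo receptors, and both were scarce. Slit2 lies on the plus strand of chromosome 5 (47983138 to 48307733), with 36 exons in its longest transcript. It had 88 and 38 counts in the controls, against 53 and 26 in Jun-cKO, or 5.34 and 5.81 CPM against 3.47 and 3.84 CPM. Both Jun-cKO libraries were lower, and the libraries of a group lay close together, but the gene was not called (log2 fold change -0.61, SE 0.28, adjusted p = 0.0728, 95% interval of the fold 0.444 to 0.965).

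Slit3 lies on the plus strand of chromosome 11 (35121224 to 35708507), also with 36 exons. The controls had 49 and 19 counts and Jun-cKO had 21 and 5, or 2.97 and 2.91 CPM against 1.38 and 0.738 CPM. The Jun-Ctrl libraries were nearly equal and the Jun-cKO libraries differed by 0.90 on the log2 scale. The fit gave a 2.54-fold lower level (95% interval of the fold 0.224 to 0.693, adjusted p = 0.0064), and since the gene was tested only because of its Jun-Ctrl counts, this call supports no direction for the set. DESeq2 did not call it (adjusted p = 0.0823), nor did the fit that left out Jun-Ctrl replicate 1 (0.112). After GC correction the log2 fold change was -1.03 in place of -1.34 (adjusted p = 0.0388). Of tested genes with a mean under 10 CPM, as the Slit genes and Robo1 were, 30.1% fell, against 18.6% of those with at least 10 CPM. Slit genes are also expressed by mesenchymal cells, whose markers Col1a1 and Acta2 fell beside them (log2 fold changes -2.77 and -2.38), while Pdgfra, at -0.18, and Pdgfrb, at 0.09, were not called. The part of such cells in the Slit values was not tested.

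Robo4, the Robo receptor of endothelial cells, rose. It is a compact gene on the plus strand of chromosome 9 (37401897 to 37415115) with 18 exons. The counts, 1277 and 633 for Jun-Ctrl against 2008 and 856 for Jun-cKO, gave 77.4 and 96.8 CPM against 132 and 126 CPM. Both Jun-cKO libraries were above both Jun-Ctrl libraries, which differed from each other by 0.32 on the log2 scale. The rise was 1.49-fold (95% interval 1.26 to 1.77, adjusted p = 0.000135). The call ended when Jun-Ctrl replicate 1 was left out (0.40 on the log2 scale, adjusted p = 0.0644). GC correction gave a log2 fold change of 0.82 against 0.58 as counted. Adjusted p ranged from 2.91e-07 to 0.0644 over 14 alternatives. Of 10 tested blood endothelial markers 4 were called higher, 3 lower and 3 were not called, where 19.0% of all tested genes were higher and 22.5% lower. Of the 3 lower, Car4 passed the filter only through Jun-Ctrl. Ednrb and Cldn5 rose (log2 fold changes 0.93 and 0.35), while Plvap and Nrp1 fell (-1.05 and -2.91). The summed level of the 12 markers was 1999 and 2163 CPM in Jun-Ctrl against 2312 and 2565 CPM in Jun-cKO. Within it Ednrb went from a mean of 291 to 555 CPM and Plvap from 331 to 158 CPM. The part of blood endothelial cells in the Robo4 value was not tested.

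The Robo4 start region is shown as that of the abundant receptor that rose. The window is chr9:37401722-37402021 (RefSeq, GRCm38.p6), and the capitals mark CAGGAAG, letters that ETS factors of endothelium can bind, whose first base is base 201 of the window.
Robo4: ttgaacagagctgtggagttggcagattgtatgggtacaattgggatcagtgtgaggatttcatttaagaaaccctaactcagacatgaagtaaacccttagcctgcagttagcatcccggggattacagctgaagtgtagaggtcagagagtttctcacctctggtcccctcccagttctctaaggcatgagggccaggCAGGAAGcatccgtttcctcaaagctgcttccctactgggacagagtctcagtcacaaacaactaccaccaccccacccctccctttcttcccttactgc
This window had a GC content of 50.3% and 2 CpG dinucleotides, against 36 in Unc5b and 54 in Neo1, and no GC box. The windows of Robo1 (57.0% GC, 15 CpG) and Robo2 (3 windows, 45.0% to 65.0% GC) held no GC box either. A relation between the content of the windows and the direction of change was not tested. Ntn1, which rose, had no window. Of all 32851 windows, 13.3% held CAGGAAG, 8.86% CCGGAAG, 35.7% GGGCGG, 13.6% TATAAA, 7.81% TGANTCA and 1.79% TGACGTCA, each counted on both strands. No match overlaps another in the printed windows, while some GC boxes of Ntn4 and Slit3 overlap each other. Of the 9 genes, 8 had an entry, with 10 windows in all. GC boxes were found in the windows of 5 genes (Ntn4, Neo1, Unc5b, Slit2 and Slit3), TATAAA in that of Slit2, CAGGAAG in that of Robo4, and either AP-1 form in 0 of the 10 windows. These are matches of letters within 300 bases and say nothing of binding.

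Robo1, a receptor for Slits in neurons and in many other cells, lies on the plus strand of chromosome 16 (72308306 to 73046095), with 29 exons. It had 118 and 37 counts in the controls, against 73 and 23 in Jun-cKO, or 7.16 and 5.66 CPM against 4.78 and 3.40 CPM. The groups did not overlap, by a margin smaller than the gap within either group. Robo1 stood at the border of the threshold, at -0.63 on the log2 scale (SE 0.26, adjusted p = 0.0501), and this adjusted p ranged from 0.026 to 0.425 over 14 alternatives. Leaving out Jun-Ctrl replicate 1 gave a log2 fold change of -0.43 and leaving out Jun-cKO replicate 1 gave -0.96.

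Robo2, the relative of Robo1, lies on the minus strand of chromosome 16 (73891839 to 74411825), with 28 exons. It had 11 and 10 counts in Jun-Ctrl and 0 in both Jun-cKO libraries. Against a floor of 3 counts over the Jun-cKO group, it was at least 6.70-fold lower there, which takes the 21 counts of the controls as they are. The exact binomial 95% interval, which also takes in the counting error of the controls, allowed a ratio of Jun-cKO to Jun-Ctrl of up to 0.201. Both cover counting error only. It was too scarce for the filter. In the fit without a filter its adjusted p was 0.000367. Since all its counts came from the Jun-Ctrl libraries, neither this value nor the fold bound supports a direction for the set. Robo3, the remaining Robo gene, was at 0.942 ± 0.225 RPKM among the controls, against 0.749 ± 0.177 RPKM in Jun-cKO, and was not called. With Robo3 included, Robo4 made up 91.7% and 92.5% of the summed RPKM of the 4 Robo genes among the controls, against 96.4% and 96.1% in Jun-cKO.

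**Figure D3:**
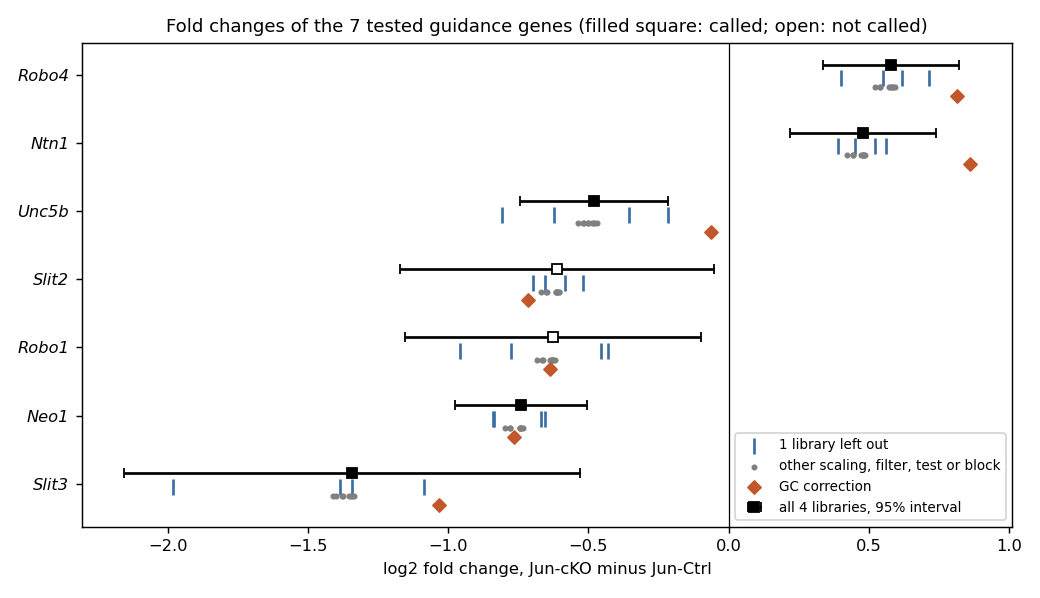
Log2 fold changes of the 7 tested guidance genes, Jun-cKO minus Jun-Ctrl. Squares are the fit of all 4 libraries with the 95% interval (filled where called), ticks the fits with 1 library left out, dots other scalings, filters, tests or the block, and diamonds the GC correction. Neo1 changes little between fits, and Unc5b moves from -0.48 to -0.06 with the GC correction.

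Other genes of the 2 pathways were counted in 5 lists. Most other ligands and receptors were absent or scarce. Of 14 other ligand genes in the table only 5 passed the filter. Of these Flrt2 and Nell1 were called lower, against a background of 22.5% of all tested genes, and Nell1 passed only through its Jun-Ctrl libraries. Flrt2, which encodes an Unc5 ligand, was at 214 and 179 CPM in Jun-Ctrl and 164 and 144 CPM in Jun-cKO (1.27-fold lower, adjusted p = 0.0147), a call lost without Jun-Ctrl replicate 1 (0.298) or Jun-cKO replicate 2 (0.12). The scarce Nell1 had 18 and 9 counts against 3 and 1 (adjusted p = 0.00216, and 0.0605 in DESeq2). Slit1, Ntng2 and Draxin had 0 counts in all libraries. Ntn3 was at 7.16 and 6.88 CPM against 4.91 and 5.76 CPM and was not called. Of 10 other receptors 3 were tested. Mcam, reported as a netrin-1 receptor of endothelium, rose 1.39-fold, from 47.5 and 40.1 CPM to 66.4 and 55.4 CPM (adjusted p = 0.00383). The Mcam call ended without Jun-Ctrl replicate 2 (adjusted p = 0.13) and without Jun-cKO replicate 1 (0.095). The adenosine receptor gene Adora2b, reported to bind netrin-1, had 34 and 7 counts among the controls, against 4 and 0 in Jun-cKO (adjusted p = 0.000161). It too passed the filter only through the controls, so neither it nor Nell1 is read as a sign of direction. Dcc, the classical netrin receptor, had 0 counts in all 4 libraries, as did Unc5d, Dscam and Dscaml1.

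**Figure D4:**
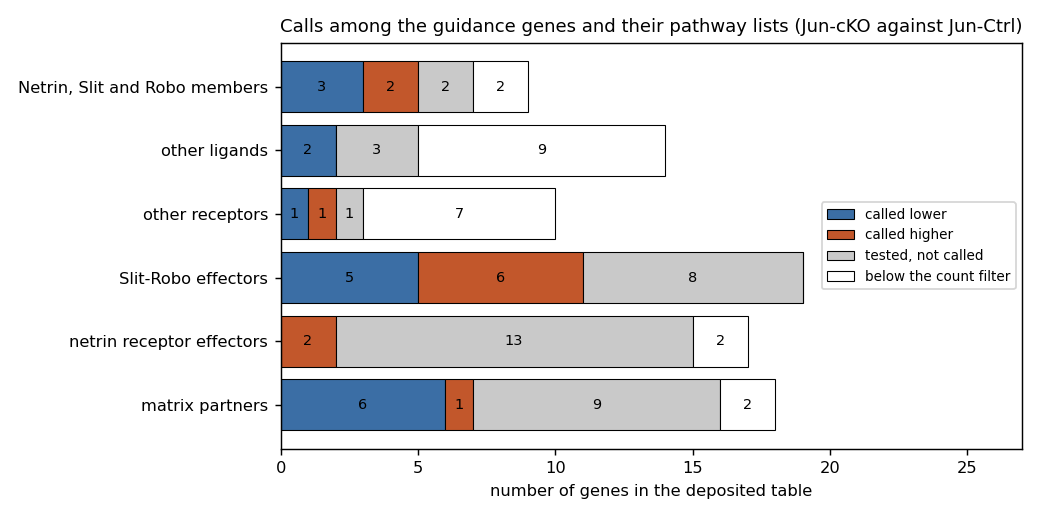
Number of genes in each list that were called lower, called higher, tested without a call, or below the count filter, for the 9 members and 5 pathway lists. Genes drawn as called lower include Slit3 among the members and Nell1, Adora2b and Gpc6 in the lists, which passed the filter only through Jun-Ctrl. Of the netrin receptor effectors 2 of 15 tested genes were called, and of the Slit-Robo effectors 11 of 19, where 41.5% of all tested genes were.

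Of 19 tested genes that act downstream of Robo receptors, 6 were called higher, 5 lower and 8 were not called, where 19.0% of all tested genes were higher and 22.5% lower. Their median log2 fold change was 0.09, against 0.01 over all tested genes. Pxn, which encodes paxillin, an adaptor that binds the cytoplasmic part of Robo4, fell 3.80-fold, from 246 and 255 CPM to 72.6 and 57.9 CPM (adjusted p = 7.12e-18), and was called in all 14 alternatives. Usp33, a deubiquitinase that binds Robo1, rose 1.43-fold, from 85.4 and 76.2 CPM to 112 and 121 CPM (adjusted p = 0.000443). Rac1, a small GTPase of lamellipodia, rose 1.39-fold from 1081 ± 1.88 to 1508 ± 131 CPM (adjusted p = 0.00215, and 0.059 without Jun-Ctrl replicate 1). Arhgap39, whose product binds Robo receptors, fell 2.00-fold (adjusted p = 0.0016), a call that ended after GC correction (0.0517) and without Jun-Ctrl replicate 2 (0.0997).

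Of 15 tested genes that act downstream of netrin receptors, 2 were called higher, 0 lower and 13 were not called, with a median of 0.06. Over all tested genes 19.0% were higher and 22.5% lower. Nck1, an adaptor that links netrin receptors to actin regulators, rose 1.67-fold from 73.7 and 60.3 CPM to 101 and 126 CPM (adjusted p = 5.44e-06). Maged1, which binds Unc5 receptors, rose 1.38-fold from 164 ± 5.15 to 226 ± 6.89 CPM (adjusted p = 0.000989, and 0.0555 without Jun-Ctrl replicate 1). Among 16 tested matrix partners, proteoglycans that carry Slits and laminin or integrin partners of netrins, 6 were called lower, 1 of them passing the filter only through Jun-Ctrl, and 1 was called higher, with a median of -0.03, beside the same background. Itga3 fell 3.64-fold, Itgb4 3.20-fold, the glypican gene Gpc3 3.58-fold and the syndecan gene Sdc4 3.27-fold. Itga3 and Itgb4 are also epithelial integrins, and the summed level of the epithelial markers was lower in the same libraries, as given above. The part of epithelial cells in these values was not tested.

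The genes nearest to each abundant called member over the 4 libraries were found by the Euclidean distance between centred log2 CPM values, among genes within 1 log2 CPM of it. They were Sec22b and Slc10a7 for Ntn1 (distances 0.027 and 0.033 among 3858 genes), S100a8 and Klf13 for Neo1 (0.088 and 0.091 among 2245), Ttyh3 and Hdgf for Unc5b (0.12 and 0.17 among 1330), and Ifi27 and Cuedc2 for Robo4 (0.037 and 0.098 among 2837). With 4 libraries in 2 groups, such distances mostly restate the group difference and the gaps within groups.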

How the data were processed

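RNA of sorted lung lymphatic endothelial cells was amplified with an Arcturus RiboAmp HS PLUS kit and sequenced to 79 bases on an Illumina instrument, per the labels' protocols. The deposited table holds raw counts per gene, made by the authors, and a gene length in bases; STAR 2.7.2a, featureCounts 1.6.4, edgeR 3.28.1 and mm10 are named without roles, per the submitters' processing notes. Annotation and strand setting were not given in the sources used here. None of the 9 genes shares exonic bases with another gene of GENCODE M21 (GRCm38), which gave coordinates, exons and GC content (12188 of 12656 tested genes matched). Columns were assigned to libraries by name.

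The test was edgeR's quasi-likelihood F test (edgeR 4.0.16, R 4.3.3) with TMM, filterByExpr and no block, over 12656 genes; a call is an adjusted p (Benjamini-Hochberg) below 0.05. Standard errors are the absolute log2 fold change over the root of F. CPM are TMM-scaled, and RPKM divide these by the deposited length. Amplification can alter levels between genes, which limits RPKM. A floor of 3 counts equals 0.182 to 0.459 CPM per library and covers counting error only. The tests were tried on simulated counts.

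Alternatives were DESeq2 1.42.0 (size factors; Wald test), upper-quartile and total scaling, limma-voom 3.58.1, the likelihood ratio test, no filter, a minimum of 50 counts in 2 libraries, a block for the replicate mark, a loess GC offset (span 0.5), other lengths for RPKM, and each library left out. The members and lists were chosen with earlier results of these data known. Named genes are Jun, the 9 members, up to 4 called genes of smallest p per pathway list, or up to 2 uncalled ones where none was called, and the 2 nearest genes of each called member with a mean of at least 50 counts. Ntn3, Robo3, the genes at 0 counts and marker genes other than the first 2 of a list were named after their values were seen. Promoter windows come from RefSeq.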

Additional observations from a re-analysis of the deposited data

How the results depend on the processing

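Every alternative kept the direction of Jun and of the 7 tested guidance genes, and the calls moved as follows. Among the alternatives that kept all 4 libraries, Robo1 passed with DESeq2 size factors (log2 fold change -0.63, adjusted p = 0.0496), upper-quartile scaling (-0.66) and library totals (-0.68). It also passed there with the likelihood ratio test (-0.63), no filter (-0.62), the filter of 50 counts (-0.67), the replicate block (-0.63) and GC correction (-0.64). Slit2 passed with library totals (-0.67), the filter of 50 counts (-0.65) and GC correction (-0.71). In the DESeq2 Wald test Unc5b (-0.49) and Slit3 (-1.41) lost their calls, leaving 3 members called, 1 of them lower. Over all, 1564 genes were then higher and 2027 lower, 28.4% of the 12656 tested. After GC correction Unc5b was not called (-0.062), and Jun was called higher (0.41, adjusted p = 0.00317). That fit called 4816 genes over all, 3842 of them called in the same direction without the correction. The members called lower numbered 5 with library totals (3155 of 12656 genes over all) and 5 with no filter (3123 of 16907), where Robo2 was tested. These counts include Slit3 and, with no filter, Robo2, which are left out of the count given above. Slit3 could not be tested with the filter of 50 counts.

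With 1 library left out, genes called ran from 2992 to 4794 (1177 to 2214 higher, 1815 to 2656 lower) and members called from 2 to 7 (1 to 2 higher, 1 to 5 lower). The count filter was applied anew in each of these fits. With either Jun-cKO library left out, the members called lower include Slit3 and a member that failed the main filter (Ntn4 or Robo2). Those member counts therefore support no direction for the set. The log2 fold changes in these fits ran from 0.39 to 0.56 for Ntn1 and from 0.40 to 0.72 for Robo4. They ran from -0.81 to -0.22 for Unc5b, from -1.98 to -1.09 for Slit3 and from -0.96 to -0.43 for Robo1. Of these totals, 2992 came without Jun-Ctrl replicate 1 and 3425 without the other control library.

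The libraries share only a mark in their titles, and the deviations of same-marked libraries from their group means correlated at 0.061 over 12656 genes. With the replicate block 5426 genes were called against 5251, and the only member call that changed was Robo1. Depth limits Ntn4 and Robo2, with 29 and 21 counts in all.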
